A study of Mus musculus with 12 samples.

Results

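The genes described here encode secreted odorant-binding proteins, lipocalins, major urinary proteins and BPI-fold proteins. They are all genes of the table whose symbol starts with Obp1, Obp2, Bpif, Lcn or Mup followed by a letter or number, 44 of 44,930 genes in all. By symbol they divide into 2 Obp1, 2 Obp2, 10 Lcn, 16 Mup, 5 Bpifa, 8 Bpifb and 1 Bpifc genes. RNA of the olfactory mucosa, the nasal lining that holds the olfactory sensory neurons together with its glands and respiratory epithelium, was sequenced after removal of ribosomal RNA. The mice carried the eB deletion (6 animals) or were wildtype (6 animals), and the comparison asks what loss of this enhancer does to gene expression. The deletion removes 1155 bp of chromosome 7 (102847692 to 102848846). All 12 animals were males of 129S6;C57BL/6J background at postnatal day 30, and each sample was labelled as a separate animal. None of the 44 genes lies on chromosome 7: 25 lie on chromosome 2, 16 on chromosome 4, 2 on chromosome X and 1 on chromosome 10.

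Lipocalins are small secreted proteins folded as a barrel around a pocket for a fatty or odorous ligand. Odorant-binding proteins are the lipocalins of nasal mucus, and major urinary proteins are the lipocalins that carry pheromones in mouse urine and are also made in other glands. BPIF proteins share the lipid-binding fold of the bactericidal/permeability-increasing protein, and several of them are secreted onto the nasal and upper airway surface.

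Since the account below turns on genes that moved together from animal to animal, the 120 bases upstream of 8 of them are shown, from RefSeq (GRCm38.p6), with the TATA-box letters TATAAA in capitals. Each window ends at the base before the more upstream of the RefSeq and GENCODE transcript starts. Obp1a (chrX:78091375-78091494, minus strand) and Obp1b (chrX:78186657-78186776, plus strand) are the odorant-binding protein pair on chromosome X. Obp2a (chr2:25699923-25700042, plus strand), Obp2b (chr2:25736887-25737006, plus strand) and Lcn3 (chr2:25765413-25765532, plus strand) lie in 1 lipocalin cluster. Lcn4 (chr2:26671283-26671402, minus strand) lies outside it. Bpifb9a (chr2:154257734-154257853, plus strand) and Bpifb9b (chr2:154307107-154307226, plus strand) are a duplicated BPIF pair.
Obp1a: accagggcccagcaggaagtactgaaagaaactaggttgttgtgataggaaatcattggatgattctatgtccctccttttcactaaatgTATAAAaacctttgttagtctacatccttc
Obp1b: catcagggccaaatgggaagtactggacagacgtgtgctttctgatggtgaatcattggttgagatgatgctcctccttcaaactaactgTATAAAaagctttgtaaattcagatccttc
Obp2a: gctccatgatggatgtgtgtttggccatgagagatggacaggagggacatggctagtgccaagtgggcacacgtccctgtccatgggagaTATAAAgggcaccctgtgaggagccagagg
Obp2b: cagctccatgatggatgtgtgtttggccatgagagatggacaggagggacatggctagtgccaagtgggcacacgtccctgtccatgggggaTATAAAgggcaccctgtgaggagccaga
Lcn3: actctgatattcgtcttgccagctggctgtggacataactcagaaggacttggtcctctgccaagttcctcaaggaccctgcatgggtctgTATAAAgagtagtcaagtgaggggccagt
Lcn4: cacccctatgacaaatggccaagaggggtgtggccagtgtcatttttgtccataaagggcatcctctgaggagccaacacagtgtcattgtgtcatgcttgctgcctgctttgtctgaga
Bpifb9a: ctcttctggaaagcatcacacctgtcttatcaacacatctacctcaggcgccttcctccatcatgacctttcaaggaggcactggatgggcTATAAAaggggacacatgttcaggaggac
Bpifb9b: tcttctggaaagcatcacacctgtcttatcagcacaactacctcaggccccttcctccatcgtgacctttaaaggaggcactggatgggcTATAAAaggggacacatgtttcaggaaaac

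TATAAA stood between 28 and 30 bases before the start in 7 of these 8 windows, and the Lcn4 window held none. It did hold cataaagggcatcctctgaggagcca, which differs in few letters from TATAAAgggcaccctgtgaggagcca of the Obp2a window. This stretch lies farther from the end of the window in Lcn4 than in Obp2a. Among all 32851 promoter windows of that length, 4.19% held TATAAA on the transcribed strand, and 9 of the 18 tested genes of these families that had a window did. The letters AGAACA, read on either strand and so including their complement TGTTCT, stood in 4 of the 18 windows and in 7.68% of all windows. None of the 8 windows shown held them. In a global alignment the Obp2a and Obp2b windows were 95.9% identical, the Bpifb9a and Bpifb9b windows 92.6% and the Obp1a and Obp1b windows 70.4%. The Lcn3 and Lcn4 windows were 48.6% identical, and the other pairs of windows 39.8 to 61.9%. These matches describe the letters in the windows and no binding was measured.

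The libraries held 13152662 to 23059835 reads on genes. The summed level of 10 markers of mature olfactory sensory neurons was 168900 to 209130 normalized counts in eB deletion and 162280 to 195540 in wildtype animals. A predicted gene, Gm10800, accounted for 2.38% of the reads of eB deletion 4, for 0.554% in eB deletion 1, 11.02% in wildtype 2, 0.329% in wildtype 5 and at most 0.00514% in the other animals. Over all 19,100 genes tested, limma found 0 genes at an adjusted p under 0.05, while 1078 genes had an unadjusted p under 0.05. On the recovered reads edgeR also found 0 genes and DESeq2 found 22 of 16125 (0.136%).

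The 44 genes together took 1.17 to 2.12% (median 1.67%) of all reads in eB deletion animals and 1.21 to 3.02% (median 1.83%) in wildtype animals. The groups overlapped, and wildtype 6 had the highest share. A gene was tested when its normalized count was at least 10 in 6 or more animals. Of the 44 genes, 19 met this and 25 did not. Among the low genes were 14 Mup genes, namely Mup1, Mup2, Mup3, Mup6, Mup7, Mup8, Mup10, Mup11, Mup12, Mup17, Mup18, Mup19, Mup20 and Mup21. The other low genes were 6 lipocalins known from the epididymis or of the same cluster (Lcn5, Lcn6, Lcn8, Lcn9, Lcn10, Lcn12) and 5 BPIF genes (Bpifa3, Bpifa5, Bpifa6, Bpifb2, Bpifc). All 25 together had 511 reads in the 12 animals, or 0.0132% of the reads of the 44 genes, with mean normalized counts of 0.215 to 9.30 per gene. Of these 511 reads, 123 came from wildtype 2, the library with the highest share of Gm10800, and 15 of the 25 genes had their most reads there. The highest of them were Lcn12 with 111 reads, Mup6 with 100 and Bpifc with 64 over all animals. Bpifc, the single gene on chromosome 10, had 1 to 10 reads in eB deletion and 2 to 25 in wildtype animals, the highest number being that of wildtype 2.

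Per kilobase of exon, the most abundant gene was Bpifa1, an antimicrobial and surface-active protein of the upper airway, with a level of 49948 ± 9387 normalized counts per kb in eB deletion and 47478 ± 17349 in wildtype animals (SD, n = 6 each). Obp1a, Obp2a and Obp2b followed with mean levels over all animals of 35170, 34856 and 28363 normalized counts per kb. Next came Bpifb3 at 21713, Obp1b at 21245, Bpifb6 at 13493, Mup4 at 12998 and Bpifb9b at 12193 normalized counts per kb. Neighbours in this order from Obp1a to Bpifb9b did not differ beyond the spread between animals, which for Obp1a was 22955 normalized counts per kb in eB deletion and 20127 in wildtype animals (SD). The levels per kb of Lcn11 (9252), Lcn3 (8812), Bpifb4 (5763), Mup5 (5208), Lcn4 (4680) and Bpifb9a (2960) came below these, and those of Bpifb5 (280), Bpifb1 (124), Lcn2 (116) and Bpifa2 (8.65) lowest. Within the BPIF family the level per kb thus ranged from 8.65 to 48713, whereas the 4 odorant-binding protein genes stood between 21245 and 35170. By mean normalized count, Bpifa1 ranked at place 11 among all genes of the table, Bpifb3 at place 20 and Obp1a at place 30.

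**Figure D1:**
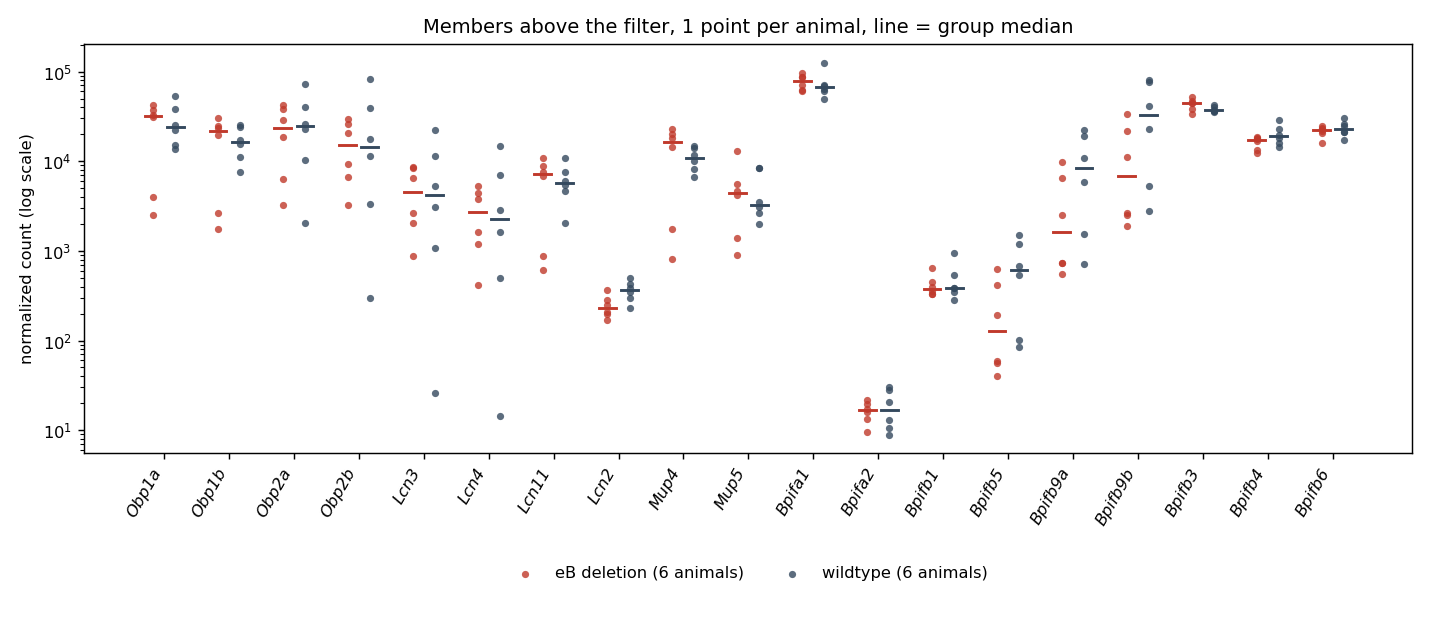
Normalized counts (log scale) of the 19 tested genes in each animal, with eB deletion animals (red, left) and wildtype animals (dark, right) and a line at each group median. Bpifa1, Bpifb3, Bpifb4 and Bpifb6 form tighter clouds than the other abundant genes, whereas Obp2b, Lcn3 and Lcn4 extend over 2 or more orders of magnitude and all genes overlap between the groups.

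No tested gene of these families was found to differ between the genotypes after adjustment over all genes tested. The other 25 of the 44 genes were not tested. For Lcn2 taken alone, the limma interval of the log2 fold change lay below 0, from -0.97 to -0.18 before adjustment. The SE of the log2 fold change reached 1.22 for Lcn4, so differences in the more variable genes may have been missed. Of the 19 tested genes, 0 passed an adjusted p of 0.05 in limma (0% of all genes tested passed), with adjusted p from 0.754 to 0.993. At an unadjusted p under 0.05, limma named 1 of the 19 genes, Lcn2, a share near that of all genes tested (5.64%, of which 2.82% were lower and 2.83% higher in the deletion). At that unadjusted p, edgeR named Lcn2, Bpifb5 and Bpifb4 (5.86% of all genes) and DESeq2 named Lcn2, Bpifb3 and Bpifb9b (5.72% of all genes), and neither gave any of the 19 genes an adjusted p under 0.05. The values of the 2 groups were separate for 0 of the 19 genes, against 0.293% of all genes. Lower values in the deletion were found for 14 genes and higher for 5, where 48.3% of all genes tested were lower, and the median log2 fold change was -0.19 (all genes tested 0.00). The signs of 6 of the 19 genes turned round in edgeR and DESeq2, which kept the count at 14, and the count ranged from 10 to 17 as each animal was left out. A log2 fold change beyond 0.5 in either direction was reached by 9 of the 19 genes (2.62% of all genes), and beyond 1 by 3 (0.277%). The authors' deposited table gives an adjusted p for 21 of the 44 genes, the lowest being 0.603. In bulk RNA fewer cells of a type and less RNA per cell cannot be told apart.

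The X-linked pair of odorant-binding proteins was abundant and varied widely. Obp1a (ENSMUSG00000067684.1, chromosome X, 78085505 to 78091374, GRCm38) had a lowest, median and highest normalized count of 2506, 32089 and 42325 in eB deletion and 13723, 24086 and 53797 in wildtype animals. The groups overlapped. eB deletion 2 and eB deletion 6 were the 2 lowest of all animals at 4000 and 2506, while the other 4 eB deletion animals stood at 31178 or more. The log2 fold change was -0.65 ± 0.63 (SE, limma adjusted p = 0.949), with a 95% interval from -1.99 to 0.69. It was -0.12 without eB deletion 6 and -0.25 without eB deletion 2. Obp1b (chromosome X, 78186777 to 78192292) had 1770, 21457 and 30103 normalized counts in eB deletion and 7554, 16444 and 25274 in wildtype animals. Again the same 2 eB deletion animals were lowest and the groups overlapped. Its log2 fold change of -0.52 ± 0.62 (SE) became 0.01 in edgeR and 0.02 in DESeq2, which compare mean counts rather than mean log values. Of the distinct 50-base stretches of Obp1b transcripts, 73.5% also occur in Gm14743, and 7.2% of those of Obp1a occur in another gene, so that the counting may have divided reads between these copies.

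The odorant-binding and vomeronasal lipocalins of chromosome 2 spread even further. Obp2a (25700043 to 25703326) had a lowest, median and highest normalized count of 3217, 23509 and 42739 in eB deletion and 2057, 24526 and 71843 in wildtype animals. Obp2b (25737009 to 25740097) had 3206, 15002 and 29810 in eB deletion and 297, 14475 and 81672 in wildtype animals. Both genes were lowest in wildtype 3 and highest in wildtype 6, so that the wildtype values enclosed all eB deletion values. The log2 fold changes were -0.18 ± 0.75 for Obp2a and 0.39 ± 1.01 for Obp2b (SE), and that of Obp2b turned to -0.68 in both edgeR and DESeq2.

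Lcn3 and Lcn4, known as vomeronasal secretory proteins of the nasal glands, had the widest spread of all 19 genes. Lcn3 (25765569 to 25768099) had a lowest, median and highest normalized count of 876, 4560 and 8592 in eB deletion and 26.1, 4212 and 22248 in wildtype animals. Lcn4 (26667674 to 26671282) had 412, 2724 and 5259 in eB deletion and 14.5, 2243 and 14779 in wildtype animals. Wildtype 3 was the lowest and wildtype 6 the highest animal for both, an 854-fold range for Lcn3 and a 1021-fold range for Lcn4. Their log2 fold changes of 0.70 ± 1.19 and 0.71 ± 1.22 (SE) rested on wildtype 3: without it they were -0.58 and -0.55, and in edgeR, with all animals, -0.58 and -0.68. Lcn11 (25777017 to 25780279) lies beside Lcn3 but had its lowest values in eB deletion 2 and 6, with 615, 7220 and 10815 normalized counts in eB deletion and 2040, 5779 and 10965 in wildtype animals. Its log2 fold change was -0.55 ± 0.64 (SE), or -0.0269 without eB deletion 6 and -0.13 without eB deletion 2, and the groups overlapped.

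Of the major urinary protein genes, Mup4 and Mup5, known from glands of the head rather than from liver, carried nearly all counted reads. Mup4 (chromosome 4, 59956804 to 59960710) had a lowest, median and highest normalized count of 811, 16203 and 23169 in eB deletion and 6700, 10803 and 14899 in wildtype animals. Mup5 (61831319 to 61835233) had 907, 4399 and 13077 in eB deletion and 1969, 3281 and 8477 in wildtype animals. The eB deletion animals held both the lowest and the highest values of each gene. The log2 fold changes of -0.50 ± 0.69 for Mup4 and -0.19 ± 0.53 for Mup5 (SE) became 0.24 and 0.08 in edgeR. Transcript stretches of 50 bases shared with other genes made up 12.4% of Mup4 and 17.1% of Mup5. The other 14 Mup genes, which include the closely similar genes of the central cluster, had 2 to 100 reads each over all 12 animals. Shared stretches made up from 4% (Mup6) to 100% (Mup19) of their transcripts. Reads of the most similar genes may thus have been divided or left out by the counting, so their low counts do not show absent expression. Of the hepatocyte markers, Alb, Apoa1, Apoa2, Serpina1a, Ttr and Fgb had mean normalized counts of 2.10 to 6.08, and Cyp2e1, which nasal mucosa also expresses, had 1101.

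Lcn2, the siderophore-binding lipocalin of neutrophils and epithelia, was the gene with the smallest p. Its lowest, median and highest normalized count was 167, 229 and 363 in eB deletion and 232, 365 and 495 in wildtype animals. The groups overlapped, with 3 eB deletion animals below every wildtype animal. The log2 fold change was -0.58 ± 0.19 (SE), with a 95% interval from -0.97 to -0.18 (limma unadjusted p = 0.00657, adjusted p = 0.754). The unadjusted p was under 0.05 in every fit that left out 1 animal, with log2 fold changes from -0.70 to -0.48, and the adjusted p was under 0.05 in none of them. The authors' deposited table gives it a p of 0.00467 and an adjusted p of 0.603, with the same direction. All 6 tested neutrophil markers (S100a8, S100a9, Ngp, Camp, Ltf, Mpo) had lower mean values in the deletion without passing the test, by a median log2 difference of -0.34. Their summed level was 2420 to 7133 normalized counts in eB deletion and 3404 to 11407 in wildtype animals, mostly from Ltf, which glands also express, and the marker Elane, below the filter, had a mean of 3.12. Their part in the Lcn2 value was not tested.

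Among the abundant BPIF genes, Bpifa1, Bpifb3, Bpifb4 and Bpifb6 varied less between animals than Bpifb9a and Bpifb9b. Bpifa1 (chromosome 2, 154142880 to 154149219) had a lowest, median and highest normalized count of 60594, 78351 and 96256 in eB deletion and 49902, 66440 and 125978 in wildtype animals. Bpifb3 (153918230 to 153932996) had 33745, 44970 and 51819 in eB deletion and 35506, 36845 and 42621 in wildtype animals. The groups overlapped for both, with 5 of 6 eB deletion animals above the wildtype mean of log2 Bpifb3. The log2 fold changes were 0.12 ± 0.19 for Bpifa1 and 0.18 ± 0.10 for Bpifb3 (SE, limma adjusted p = 0.973 and 0.887). Bpifb6 (153900388 to 153912795) had 15943, 22357 and 24518 normalized counts in eB deletion and 17116, 23128 and 30417 in wildtype animals, with a log2 fold change of -0.11 ± 0.13 (SE). Bpifb4 (153938212 to 153964101) had 12201, 17136 and 18421 in eB deletion and 14518, 18894 and 28498 in wildtype animals, with a log2 fold change of -0.29 ± 0.15 (SE). In rat, the counterparts of Bpifb3 and Bpifb4 were described from olfactory mucosa. These 3 neighbouring genes overlapped between the groups, and their SDs of log2 values within groups, 0.172 for Bpifb3, 0.258 for Bpifb6 and 0.311 for Bpifb4, lay above the median of genes of like mean level (0.109) and below the 95th percentile (0.316). The low genes Bpifb1, known from goblet cells of the airway, and Bpifa2, the parotid secretory protein, had log2 fold changes of -0.12 ± 0.23 and -0.08 ± 0.30 (SE).

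The most variable BPIF genes were Bpifb5, Bpifb9a and Bpifb9b, which adjoin each other on chromosome 2. Bpifb9a and Bpifb9b correspond to vomeromodulin, a protein first described in rat nasal glands. Bpifb9b (154307227 to 154320646) had a lowest, median and highest normalized count of 1870, 6821 and 33517 in eB deletion and 2753, 32370 and 79892 in wildtype animals. Bpifb9a (154257854 to 154271245) had 557, 1610 and 9689 in eB deletion and 721, 8310 and 22049 in wildtype animals. Bpifb5 (154223742 to 154240902) had 39.8, 127 and 624.5 in eB deletion and 83.7, 613 and 1508 in wildtype animals. For all 3 genes eB deletion 1 was lowest and wildtype 1 highest, and 3 wildtype animals (1, 3 and 4) stood above every eB deletion animal while wildtype 2 and 5 lay among the lower eB deletion values. The log2 fold changes were -1.62 ± 0.87 for Bpifb9b, -1.55 ± 0.86 for Bpifb9a and -1.61 ± 0.78 for Bpifb5 (SE), with 95% intervals that reached 0.22, 0.26 and 0.03. In limma each variance is drawn towards that of genes of like mean level. For these widely varying genes the errors and intervals are therefore narrower than their own spread gives. The limma adjusted p was 0.887 for Bpifb9b and Bpifb9a and 0.880 for Bpifb5. Without wildtype 2 the log2 fold changes were -2.20, -2.14 and -2.08, and across all fits that left out 1 animal they lay between -2.20 and -1.15. Of the 50-base stretches of Bpifb9b transcripts, 71.4% also occur in Bpifb9a, so reads of this pair may have been divided by the counting, whereas Bpifb5 shares none.

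**Figure D2:**
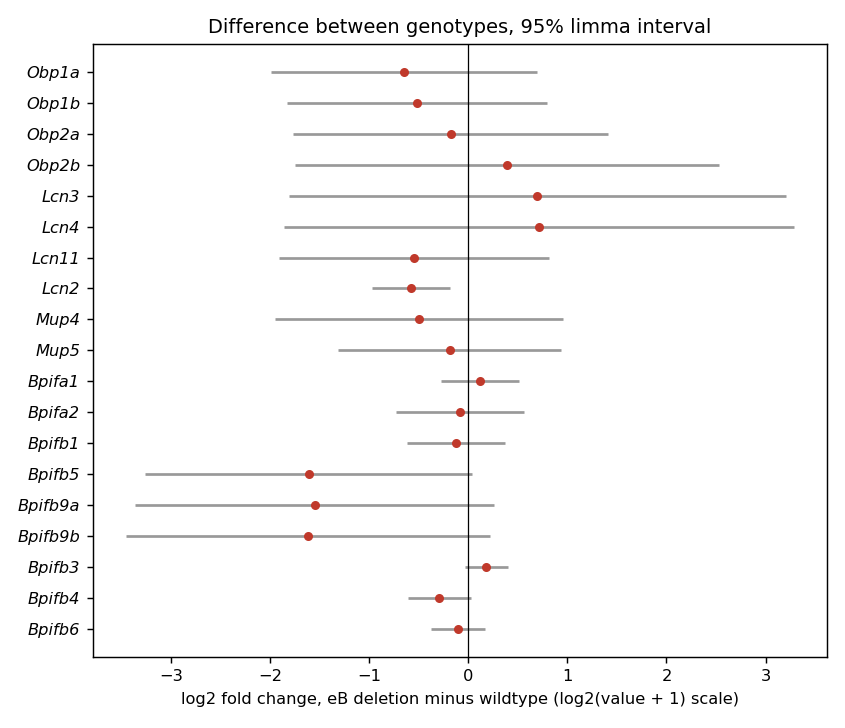
Log2 fold change of the 19 tested genes, eB deletion minus wildtype, with 95% limma intervals. The interval of Lcn2 lies below 0 before adjustment, those of Bpifb5, Bpifb9a and Bpifb9b are wide and centred near -1.6, and those of Lcn3 and Lcn4 extend over more than 4 log2 units.

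Many of these genes varied widely between animals of the same genotype. The pooled SD of log2(value + 1) within groups had a median of 1.40 over the 19 tested genes and of 0.173 over all genes tested. It lay in the highest 1% of all genes tested for 12 of the 19 genes, from 1.17 for Mup5 to 2.69 for Lcn4. These 12 were the 4 odorant-binding protein genes, Lcn3, Lcn4, Lcn11, Mup4, Mup5, Bpifb5, Bpifb9a and Bpifb9b. The other 7 had SDs of 0.172 (Bpifb3) to 0.567 (Bpifa2). All genes tested were also compared in 20 bins of mean. The highest bin had a median mean of 4525, well below the means of genes such as Bpifa1 and Bpifb3. Of the 19 genes, 15 stood above the 95th percentile of their bin. These included Bpifa1 (0.373, 95th percentile 0.316), Bpifb1 (0.507, 95th percentile 0.267) and Lcn2 (0.393, 95th percentile 0.305), and the exceptions were Bpifb3, Bpifb4, Bpifb6 and Bpifa2. Wide spread was not confined to these families. Among 78 tested genes of the other marker lists, 8 also had an SD in the highest 1%, namely the secreted Dmbt1 (1.95), Klk1 (2.24), Car6 (1.73), Muc5ac (1.56) and Pip (1.53) and the neutrophil genes Ngp (1.502), Mpo (1.16) and Camp (1.15). Of the 4041 genes tested with a mean normalized count over 1000, the median SD was 0.104. Counting error accounted for an SD of at most 0.114 among the 15 genes of these families above that mean. Spread was present in both genotypes: for Bpifb9b the SD of log2 values was 1.79 in eB deletion and 2.04 in wildtype animals. For Lcn3 it was 1.33 in eB deletion and 3.47 in wildtype animals, and for Mup4 it was 2.09 in eB deletion and 0.451 in wildtype animals. These differences in SD rest on wildtype 3 for Lcn3 and on eB deletion 2 and 6 for Mup4 and were not tested.

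**Figure D3:**
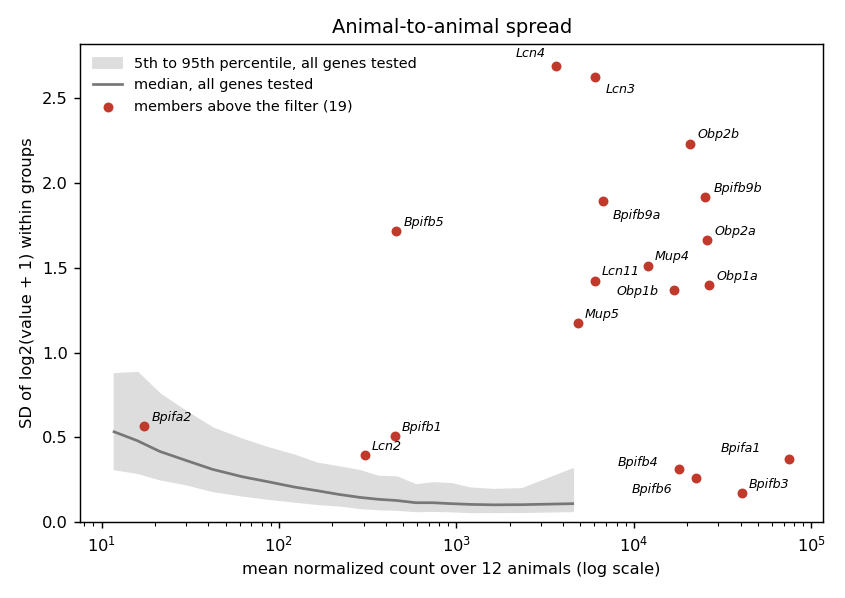
SD of log2(value + 1) within groups against mean normalized count over 12 animals (log scale) for the 19 tested genes, with the median and the 5th to 95th percentile of all genes tested in 20 bins of mean. The grey band ends at 4525, the median mean of the highest bin, so genes of higher mean stand to its right. The points of 12 genes stand at 1.17 or more, far above the 95th percentile of their bin. Those of Bpifa1, Bpifb1 and Lcn2 exceed that percentile by less, and Bpifb3 stands lowest at 0.172.

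The variable genes did not all vary together. With group means removed, 18 genes were each compared with Obp1a across the 12 animals on the log2 scale, and 5 correlations passed a permutation test (100000 resamples, two-sided, Benjamini-Hochberg adjusted over the 18). The permutations ran over all 12 animals regardless of genotype. Since the groups differ in spread for genes such as Mup4, these p-values are approximate and may be too small. Obp1b followed Obp1a most closely, with r = 0.990 and rho = 0.972 (n = 12, permutation p = 1e-05, adjusted p = 6e-05). A p of 1e-05 stands for values at or near the smallest these resamples can give. Lcn11 had r = 0.969 and rho = 0.937, and Mup4 had r = 0.9595 and rho = 0.944, both with a permutation p of 1e-05 and an adjusted p of 6e-05. Mup5 had r = 0.875 and rho = 0.867 (permutation p = 0.00016, adjusted p = 0.00072), and Obp2a had r = 0.825 and rho = 0.839 (permutation p = 0.00191, adjusted p = 0.00688). Since eB deletion 2 and 6 stand apart in Obp1a, r was computed again without them, over 10 animals with group means taken anew. It was then 0.937 for Obp1b, 0.814 for Lcn11, 0.715 for Mup4, 0.670 for Mup5 and 0.845 for Obp2a. The Mup5 correlation no longer passed (adjusted permutation p = 0.0759), so it rests in part on those animals.

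Obp2b, Lcn4 and Lcn3 correlated with Obp1a at r = 0.638, 0.611 and 0.589 (n = 12, permutation p = 0.0255, 0.0343 and 0.0433, adjusted p = 0.0765, 0.0882 and 0.0974). Their rank correlations with Obp1a were rho = 0.783, 0.748 and 0.706 (permutation p = 0.00394, 0.00722 and 0.0128, adjusted p = 0.0118, 0.0186 and 0.0288). Without the 2 low animals the values were r = 0.868, 0.845 and 0.827. Without wildtype 3, in which these 3 genes were lowest, they were r = 0.758, 0.770 and 0.771, and 8 of 18 relations passed instead of 5. The remaining 10 genes did not pass with Pearson's r or Spearman's rho. Among them, Bpifb9b, Bpifb9a and Bpifb5 had r of -0.30, -0.31 and -0.32 with Obp1a, and Bpifb4 and Bpifb3 had r of -0.46 and -0.48. Without eB deletion 6 the first 3 were at -0.0352, -0.0415 and -0.0487, and without both eB deletion 2 and 6 at -0.40, -0.39 and -0.39. Without these 2 animals Bpifb4 was at -0.47 and Bpifb3 at -0.0648.

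Over all 171 pairs of the 19 genes, 23 correlations had an adjusted permutation p under 0.05, and all 23 were positive. Of these, 19 joined 2 of 9 genes (Obp1a, Obp1b, Obp2a, Obp2b, Lcn3, Lcn4, Lcn11, Mup4 and Mup5) and 3 joined Bpifb5, Bpifb9a and Bpifb9b with each other. The last joined Bpifa1 with Bpifb1, at r = 0.809 (n = 12, permutation p = 0.00249, adjusted p = 0.0185), and at 0.418 without the 2 animals farthest from the median of Bpifa1. These sets were drawn after the correlations had been seen. Within the set of 9 genes r ranged from 0.465 to 0.998 with a median of 0.802 over 36 pairs. Of these 36 pairs 19 passed, so the set was not linked throughout. By Pearson's r, no pair of Obp1a, Obp1b, Lcn11, Mup4 or Mup5 with Obp2b, Lcn3 or Lcn4 passed. Their adjusted permutation p was 0.0697 to 0.405. Some passed by rank, such as Obp1a with Obp2b (rho = 0.783, adjusted permutation p = 0.0306). Obp2a had pairs that passed with genes of both groups. Within Bpifb5, Bpifb9a and Bpifb9b r was 0.992 to 0.998. Between the 2 sets all 27 correlations were negative, from -0.38 to -0.23, and 0 passed. Since genes within each set correlate with each other, these 27 values do not count separately. Without the 2 animals farthest from the median of the first gene, some turned positive and others stayed negative. Obp2a with Bpifb9b was then at 0.102 and Obp1a with Bpifb9b at -0.40. The less variable neighbours Bpifb3, Bpifb4 and Bpifb6 had r of 0.198 to 0.573 with each other, and 0 of their 3 pairs passed.

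Within the set of 9 genes, Lcn3, Lcn4 and Obp2b formed the tightest group. Lcn3 and Lcn4, which lie apart on chromosome 2, correlated at r = 0.998, and Obp2b correlated with Lcn4 at 0.996 and with Lcn3 at 0.992. Obp2a correlated at 0.952 with Obp2b, 0.942 with Lcn4, 0.933 with Lcn3, 0.878 with Lcn11 and 0.843 with Obp1b. Lcn11, the neighbour of Lcn3 in the cluster, correlated at 0.988 with Obp1b of chromosome X and at 0.938 with Mup4 of chromosome 4.

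**Figure D4:**
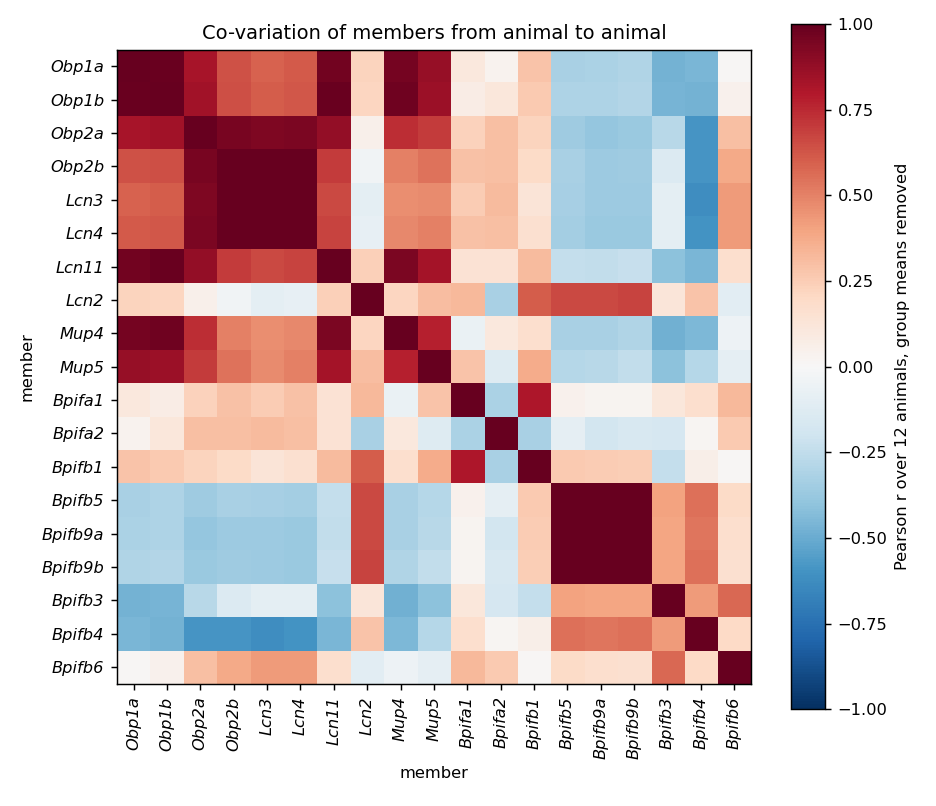
Pearson r between the 19 tested genes across 12 animals on the log2(value + 1) scale with group means removed. The 9 genes with r of 0.465 to 0.998 stand at the upper left with Lcn2 among them as a pale line, and Bpifb5, Bpifb9a and Bpifb9b form a separate square with r of 0.992 to 0.998.

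Ratios of normalized counts within an animal show on a linear scale how closely some pairs of these genes moved together. All pairs were taken within a set and none between the sets, so the ratios do not test the grouping. The ratio of Obp1a to Obp1b was 1.41 to 1.601 in eB deletion and 1.30 to 2.13 in wildtype animals, a 1.64-fold range while Obp1a itself ranged 21.5-fold. Lcn3 to Lcn4 was 1.59 to 2.13 in eB deletion and 1.51 to 2.16 in wildtype animals, a 1.43-fold range. Bpifb9b to Bpifb9a was 3.36 to 4.43 in eB deletion and 3.38 to 3.99 in wildtype animals, although shared sequence may tie these 2 counts together. Bpifb9b to Bpifb5, which share no 50-base stretch, was 42.9 to 56.5 in eB deletion and 32.9 to 64.3 in wildtype animals, a 1.96-fold range against the 42.7-fold range of Bpifb9b. Looser were Obp1a to Mup4 (1.63 to 3.09 in eB deletion, 1.59 to 3.81 in wildtype), Mup4 to Mup5 (0.894 to 4.30 in eB deletion, 1.18 to 5.93 in wildtype) and Obp1a to Obp2a (0.626 to 1.69 in eB deletion, 0.526 to 6.67 in wildtype). The ratio of Obp2a to Obp2b was 0.947 to 2.00 in eB deletion and 0.880 to 6.92 in wildtype animals, with its highest value in wildtype 3, where Obp2b was lowest.

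**Figure D5:**
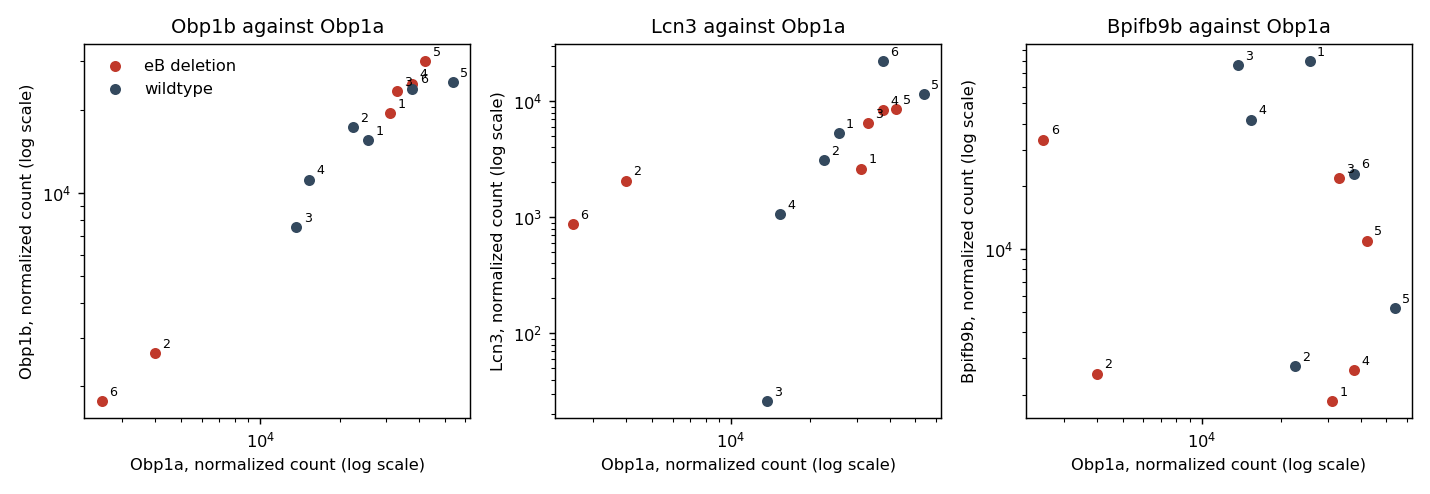
Normalized counts (log scales) of Obp1b, Lcn3 and Bpifb9b against Obp1a, 1 point per animal with its replicate number, eB deletion in red and wildtype in dark. Obp1b lies along 1 line and Bpifb9b shows no such line. Lcn3 follows Obp1a more loosely, with wildtype 3 farthest off at 26.1 (r with group means removed 0.589, or 0.77 without wildtype 3).

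The 10 genes not covered by the symbols above that had the highest correlation with Obp1a across the 12 animals are given as a description. Of them, 4 lie on the same stretch of chromosome X, between 77864758 and 78245921, namely Gm14744 (r = 0.989), 5430402E10Rik (0.976), Gm14743 (0.970) and Gm14750 (0.951). These names are those of GENCODE, and the deposited table lists the genes by clone names. Since Gm14743 shares much transcript sequence with Obp1b, reads may have been divided between these 2 genes, whereas the stretches that Obp1a shares with any other gene make up 7.2% of its own. Gm14744 reached a mean of 24990 normalized counts and 5430402E10Rik of 17450, the same order as Obp1b. Another, BC051076 on chromosome 5 (r = 0.962, mean 13370), was as abundant as Mup4, and Gm13539 (0.930) lies next to Lcn11 on chromosome 2 with a mean of only 8.76. Rgs4 (0.962), Klk14 (0.898), Aldh3b2 (0.894) and Olfr951 (0.885) had means of 20.4 to 40.0 normalized counts. The log2 fold changes of these 10 genes were -1.10 to -0.24, and none passed in limma (adjusted p from 0.754 to 0.978).

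The genes most like Bpifb9b, chosen by the same measure after the data were seen, began with 3 neighbours on chromosome 5: 2310003L06Rik (r = 0.983), Cabs1 (0.979) and Odam (0.952). Htra1, Mrps18a, Gba2, Igfbp6, Clcn6, Gpx2 and Fam69b followed at r of 0.930 to 0.884. 2310003L06Rik had a lowest, median and highest normalized count of 32.4, 83.0 and 455 in eB deletion and 40.4, 351 and 1082 in wildtype animals. BC051076 ends 3106 bases before it and had 1423, 16260 and 22620 in eB deletion and 4333, 14590 and 23920 in wildtype animals. These neighbours correlated with each other at r = -0.24. BC051076 correlated at r = 0.962 with Obp1a and -0.30 with Bpifb9b, whereas 2310003L06Rik correlated at -0.25 with Obp1a and 0.983 with Bpifb9b. BC051076 thus followed the odorant-binding protein pattern and 2310003L06Rik the Bpifb9 pattern. Both genes were picked for these correlations in the same animals, so their values describe the patterns and do not test them.

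Other secretion genes were compared in lists chosen for this tissue. In the list of nasal gland and mucus genes, 0 of 19 tested genes passed in limma, 12 stood lower and 7 higher in deletion animals, and the median log2 difference was -0.02 (all genes tested 0.00). Gpx6, an olfactory glutathione peroxidase, was the gene with an unadjusted p under 0.05, with a log2 fold change of -0.36 ± 0.13 (SE, limma adjusted p = 0.816). Scgb1c1 and Slc12a2, an ion transporter, had log2 fold changes of -0.02 ± 0.11 and 0.06 ± 0.06 (SE). Of the widely varying genes of this list, chosen after their values were seen, Dmbt1, a secreted scavenger receptor protein, had a lowest, median and highest normalized count of 862, 5110 and 10591 in eB deletion and 246, 5509 and 23257 in wildtype animals. Its r with Obp1a was 0.715 and that of Muc5ac, a gel-forming mucin, was -0.14 (n = 12, given as a description). In the list of salivary and lacrimal proteins 0 of 7 tested genes passed, 5 were lower and 2 higher, with a median of -0.04, and Dcpp1, named after its value was seen, had an unadjusted p under 0.05 (-0.50 ± 0.21, SE, limma adjusted p = 0.850). The widely varying genes of that list, Pip, Car6 and Klk1, had r of 0.786, 0.570 and 0.517 with Obp1a (n = 12, given as a description), with log2 fold changes of 0.06 ± 0.70, -0.04 ± 0.78 and 0.10 ± 1.01 (SE). The other lipocalins had 0 of 5 passing with a median of -0.04, and the most abundant of them, the lipid carrier Apod, had a log2 fold change of -0.04 ± 0.11 (SE). The other BPI-fold genes had 0 of 2 passing with a median of -0.01, namely Lbp (-0.10 ± 0.20, SE) and Pltp (0.09 ± 0.09, SE), a lipopolysaccharide-binding and a phospholipid transfer protein. The club and goblet cell genes had 0 of 7 with -0.07, with Sec14l3 at 0.04 ± 0.08 (SE). The ciliated cell genes had 0 of 8 with -0.02, the sustentacular genes 0 of 7 with 0.06, the olfactory neuron genes 0 of 10 with 0.05, the vomeronasal genes 0 of 2 with -0.04 and the chondrocyte, bone and muscle genes 0 of 6 with -0.04.

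The mean log2 level of each list and 3 library measures were set against Obp1a across the 12 animals, 15 relations in all, and 0 passed after adjustment. The highest was the salivary and lacrimal list, with r = 0.662 and rho = 0.455 (n = 12, permutation p = 0.0201, adjusted p = 0.302), which was 0.331 without eB deletion 2 and 6. Its summed level was 575 to 2031 normalized counts in eB deletion and 632 to 2681 in wildtype animals, with Smr2, Smr3a, Prol1, Esp1, Esp6 and Scgb2b26 at means under 3. The olfactory neuron list had r = -0.57 and rho = -0.50 (n = 12, permutation p = 0.0527, adjusted p = 0.395), or -0.22 without those 2 animals. The nasal gland list had r = 0.307 and rho = 0.329, the number of reads on genes r = 0.0756 and rho = 0.133, and the share of Gm10800 r = 0.353 and rho = 0.168 (n = 12 each, permutation p = 0.332, 0.812 and 0.261, adjusted p = 0.669, 0.937 and 0.669).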

How the data were processed

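Read alignment with STAR 2.6.0, the use of DESeq2 and the build GRCm38.p6 are named in the submitters' processing notes. Per the labels' protocols, libraries were made with a stranded total RNA kit. The sources used here do not give the read counter, gene annotation or strand setting. The build of the deleted interval is not given beside it and was read as GRCm38. The deposited values are a signal, namely normalized counts, read counts scaled by the authors with a size factor for each library: 100% of values are whole multiples of 1 read (relative tolerance 0.001), so reads were recovered. The authors' deposited table also gives a log2 fold change and its error, positive where wildtype is higher, a score, which is their test statistic, and a p-value and adjusted p-value.

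Each animal counted as 1 replicate. Libraries of a group differed by a chi-square of at least 12.9 per degree of freedom, so none was a duplicate. Since the values were normalized, log2(value + 1) was tested with limma-trend (version 3.58.1 in R 4.3.3), for genes at 10 or more in at least 6 of 12 animals (19100 genes), without covariates, adjusted by Benjamini-Hochberg over all genes tested, threshold 0.05, in the direction eB deletion minus wildtype. Fold changes of low genes are understated on this scale. On the recovered reads, the alternatives edgeR 4.0.16 (quasi-likelihood) and DESeq2 1.42.0 called 0 and 22 genes. Scripts were tested on simulated data. Positions and exon lengths are from GENCODE M21, to which all 44 genes matched. Correlations used permutation tests, and the r without 2 animals left out those farthest from the median of the first gene. Python 3.11.15, pandas 2.3.3, scipy 1.17.1 and matplotlib 3.10.9 were used.

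Genes given in full are those with an unadjusted p under 0.05, the 12 of highest mean and the highest of each subfamily, and Mup5, Lcn3, Lcn4 and Bpifb5 were added for their spread or position. The genes and lists were chosen with earlier results of these data known. Alternatives covered the tests, scaling, filters, pseudocounts, a replicate block, libraries high in Gm10800 and each animal left out.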

Additional observations from a re-analysis of the deposited data

How the results depend on the processing

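Under every alternative run, 0 of the 19 genes had an adjusted p under 0.05. Over all genes DESeq2 called 22 genes, and leaving out 1 animal gave 0 to 1 with limma. The number of the 19 genes with an unadjusted p under 0.05 was 1 with limma. It was 3 in edgeR, DESeq2 and without a filter, 5 without the 2 libraries over 1% on Gm10800 and 6 without the 4 over 0.1%, where Bpifb5, Bpifb9a, Bpifb9b, Bpifb3 and Bpifb4 joined Lcn2. Leaving out 1 animal gave 1 to 5, with 5 without wildtype 2 or wildtype 5, 4 without eB deletion 3 or 6 and 2 without eB deletion 4 or 5. Over all genes, such a p was held by 5.64% in limma, 5.86% in edgeR and 5.72% in DESeq2. For the other fits no share of all genes is given, so their counts are not read as a result about the 19 genes. Bpifb5, Bpifb9a and Bpifb9b correlated at r of 0.992 to 0.998, so they do not count separately. The median log2 fold change of the 19 genes ranged from -0.58 (without wildtype 3) to -0.03 (without eB deletion 6), and the number of lower genes from 10 to 17.

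Same-numbered animals of the groups were not paired, since the correlation of their deviations was -0.12 to 0.16. A fit with the replicate number as a block gave 4 genes at an unadjusted p under 0.05, also without a share of all genes beside it.

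In DESeq2 and edgeR the log2 fold changes that changed sign were those of Lcn3 (-0.58 and -0.58), Lcn4 (-0.67 and -0.68), Obp2b (-0.68 and -0.68), Mup4 (0.25 and 0.24), Mup5 (0.0842 and 0.0791) and Obp1b (0.0181 and 0.0139). Of the correlations with Obp1a, 5 passed and 5 to 8 did when 1 animal was left out. Those of Bpifa2 (-0.0356 without the 2 Gm10800 libraries) and Lcn2 (-0.15 without the 2 animals farthest in Obp1a) changed sign. Leaving out 1 animal also turned log2 fold changes of single genes: Bpifa2 ranged from -0.25 to 0.0790, Bpifb1 from -0.26 to 0.10, Lcn3 from -0.58 to 1.36, Lcn4 from -0.55 to 1.43, Mup4 from -0.83 to 0.14, Mup5 from -0.57 to 0.20, Obp1b from -0.81 to 0.0046, Obp2a from -0.81 to 0.29 and Obp2b from -0.60 to 1.02. Without a change of sign, Obp1a ranged from -0.93 to -0.12, Lcn11 from -0.85 to -0.0269, Bpifa1 from 0.0184 to 0.29 and Bpifb6 from -0.19 to -0.0220. The r with Obp1a ranged from -0.0838 to 0.32 for Bpifa1, -0.0510 to 0.22 for Bpifa2 and -0.14 to 0.24 for Bpifb6. The causes were not tested.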
